A study of Mus musculus with 14 samples.

Results

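A set of 10 genes of the TGF-beta and activin pathway was followed in wounded mouse fibroblasts with and without micrograft treatment. They comprised 4 ligand genes (Tgfb1, Tgfb2, Tgfb3 and Inhba), the ligand-binding proteins Fst and Ltbp1, the receptors Tgfbr1, Tgfbr2 and Tgfbr3, and the signal transducer Smad3. The genes were chosen by symbol and role, with no threshold on a measured value but with earlier results of these data known. Counts of these genes beside the shares of all genes therefore describe them and were not tested. All 10 were found among the 43472 genes of both deposited tables. All 10 passed the filter on low values (a mean normalised count of at least 10).

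RNA was sequenced from 14 libraries of primary fibroblasts of C57BL/6 mice, isolated from the tail end by collagenase digestion and grown in serum-containing medium. Every culture, control or treated, was wounded with a scratch. Untreated cultures were compared with AMG-treated cultures, where AMG (autologous micrograft) is the filtered and cell-depleted soluble material of a mechanically disrupted mouse skin biopsy, diluted in growth medium. Both groups have a replicate 1 that covers 1, 5, 12 and 24 h, whereas replicates 2, 3 and 4 cover 5 h alone. The series describes the replicates as biological. The labels do not give the age of the mice or whether cells of several mice were pooled. Nor do they say what libraries with the same number share. A p-value here therefore weighs a difference against the spread between these libraries. With the replicate number in the fit, the spread is that of the treated to untreated differences within the numbers.

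TGF-beta 1, 2 and 3 are secreted in a latent form, bound to their own propeptide and, for most of it, to a latent TGF-beta binding protein such as the product of Ltbp1, which tethers the complex to the matrix. Released ligand binds the type II receptor (Tgfbr2), which recruits and phosphorylates the type I receptor (Tgfbr1), and the complex then phosphorylates Smad2 and Smad3, which move to the nucleus with Smad4. Activin A is a dimer of the Inhba product that signals to the same Smads through activin receptors, and follistatin (Fst) binds it and blocks its action. In skin wounds this pathway is known for driving matrix production and the conversion of fibroblasts to contractile myofibroblasts.

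Promoters of 3 of the genes are shown first, chosen for the contrast between their patterns. The 250 bases before the annotated start are from RefSeq (GRCm38.p6), 5′ to 3′ on the gene's own strand, with a TATAAA match in capitals where there was one. Tgfb1, at chr7:25686752-25687001 (+ strand), is shown because it was higher with AMG in every pair of libraries, Tgfb2, at chr1:186705990-186706239 (- strand), because it was lower in all but 1 pair, and Inhba, at chr13:16011601-16011850 (+ strand), because its ratio changed sign between replicates.
Tgfb1: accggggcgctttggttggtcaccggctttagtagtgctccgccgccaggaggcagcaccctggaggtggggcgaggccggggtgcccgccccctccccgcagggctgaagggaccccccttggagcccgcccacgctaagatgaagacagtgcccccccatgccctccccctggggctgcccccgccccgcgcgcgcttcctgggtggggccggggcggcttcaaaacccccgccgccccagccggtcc
Tgfb2: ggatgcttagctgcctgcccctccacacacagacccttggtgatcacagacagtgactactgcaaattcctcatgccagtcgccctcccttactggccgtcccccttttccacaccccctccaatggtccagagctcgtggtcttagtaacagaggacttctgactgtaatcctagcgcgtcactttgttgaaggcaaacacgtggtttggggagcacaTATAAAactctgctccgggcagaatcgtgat
Inhba: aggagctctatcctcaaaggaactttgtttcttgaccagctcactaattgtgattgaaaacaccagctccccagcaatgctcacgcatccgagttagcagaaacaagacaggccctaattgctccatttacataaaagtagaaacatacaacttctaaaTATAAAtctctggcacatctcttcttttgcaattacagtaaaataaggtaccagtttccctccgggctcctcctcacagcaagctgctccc
The Tgfb1 window had a GC content of 75.2% and no match to any motif searched. The TATAAA match began at position -31 in Tgfb2, counted back from the start, and at position -91 in Inhba, and their GC contents were 53.6% and 43.2%. Of 32851 RefSeq promoter windows of 250 bases, 12.4% held TATAAA on either strand. The AP-1 site TGANTCA was in 0 of the 9 windows that RefSeq gave for 7 of the 10 genes, against 6.75% of all windows, and the full cAMP response element TGACGTCA was in 1 of them, at position -73 of an Ltbp1 window, against 1.55%. The Smad palindrome GTCTAGAC was in 0.167% of all windows and the Smad box CAGAC in 42.2%. In each window of these genes the palindrome had 0 matches. The Smad box, not marked above, had 2 matches in the Tgfb2 window, 1 and 2 in the Ltbp1 windows and 1 in the Tgfbr2 window. It had 0 and 1 in the Tgfbr1 windows and 0 in those of Tgfb1, Inhba and Smad3. These matches describe letters only.

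Between 12545537 and 34696529 reads per library were assigned to genes. All 10 fibroblast markers were expressed, with a summed normalised count of 485208 to 675537 in the untreated and 412102 to 533552 in the treated libraries of replicates 2 to 4, and 0 of them passed limma. With the replicate number in the fit 7 passed (1 higher, 6 lower with AMG), where 37.2% of all genes passed. Of 10 leukocyte markers, 6 were tested and 0 passed either fit. Their sum was 167 to 1392 in untreated and 212 to 1248 in treated libraries, and Cd3e was at 0 in all 14. Lyz2 alone was at 76.6 to 978 in these untreated and 95.9 to 916 in these treated libraries. Keratinocyte markers summed to 160.1 to 318 and 112 to 167, with Krt1 at 0. Endothelial markers summed to 56.3 to 294 and 129.9 to 271, muscle markers to 2907 to 7295 and 1751 to 5503 with Myod1 at 0, melanocyte and Schwann cell markers to 50.1 to 97.9 and 61.5 to 111, adipocyte markers to 309.9 to 1253 and 375 to 2104 with Lep and Cidec at 0, and red blood cell markers to at most 0.541 and 2.46. Of these other lists 0 markers passed limma. Among the 8 muscle markers 7 had a mean under 10 in replicates 2 to 4, so their sum came mostly from 1 gene. With the replicate number in the fit 2 of 3 tested keratinocyte markers were lower, 1 endothelial and 1 adipocyte marker were higher and 1 of each lower, and the 1 tested muscle marker was lower. The part of these in the results below was not tested, and in bulk RNA fewer cells of a type and less RNA per cell cannot be told apart. The share of reads from 83 ribosomal protein genes was 6.997% in Untreated 5h replicate 1 and 5.10% in AMG-treated 1h replicate 1, against 2.27% to 3.47% in the other 12 libraries. Ratios of replicate 1 at 1 h and 5 h rest on these libraries and are therefore also given after a correction for transcript length. All differences from 1 h in the treated course also rest on AMG-treated 1h replicate 1.

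The first question was which of these genes responded to AMG at 5 h. On log2(normalised count + 1), Tgfb1 was higher with AMG by about the same ratio in each replicate. Tgfb2 and Tgfb3 were lower in each. The fitted changes of the genes for receptors and binding proteins were smaller, although Tgfbr1 fell more than Tgfb2 in replicates 2 and 4. With limma on the 3 untreated and 3 treated libraries, 0 of the 10 genes passed an adjusted p of 0.05, where 1.24% of the 13096 genes tested passed (0.97% higher, 0.267% lower). At an unadjusted p under 0.05 there were 2 (Tgfb1 and Tgfb3), against 23.1% of all genes. DESeq2 called 2 (10.9% of all genes) and edgeR 0 (1.03%). With the replicate number as a block in limma, 6 of 10 passed, against 37.2% of all genes. Tgfb1 was the 1 that rose (17.9% of all genes rose), and Tgfb2, Tgfb3, Fst, Tgfbr1 and Tgfbr2 were the 5 that fell (19.3% of all genes fell). The 3 treated values lay wholly above the untreated ones for Tgfb1 and wholly below for Tgfbr2, which makes 2 of 10, against 28.7% of all genes (15.1% above, 13.6% below). The median log2 fold change of the 10 genes was -0.24 and that of all genes tested was -0.02.

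**Figure D1:**
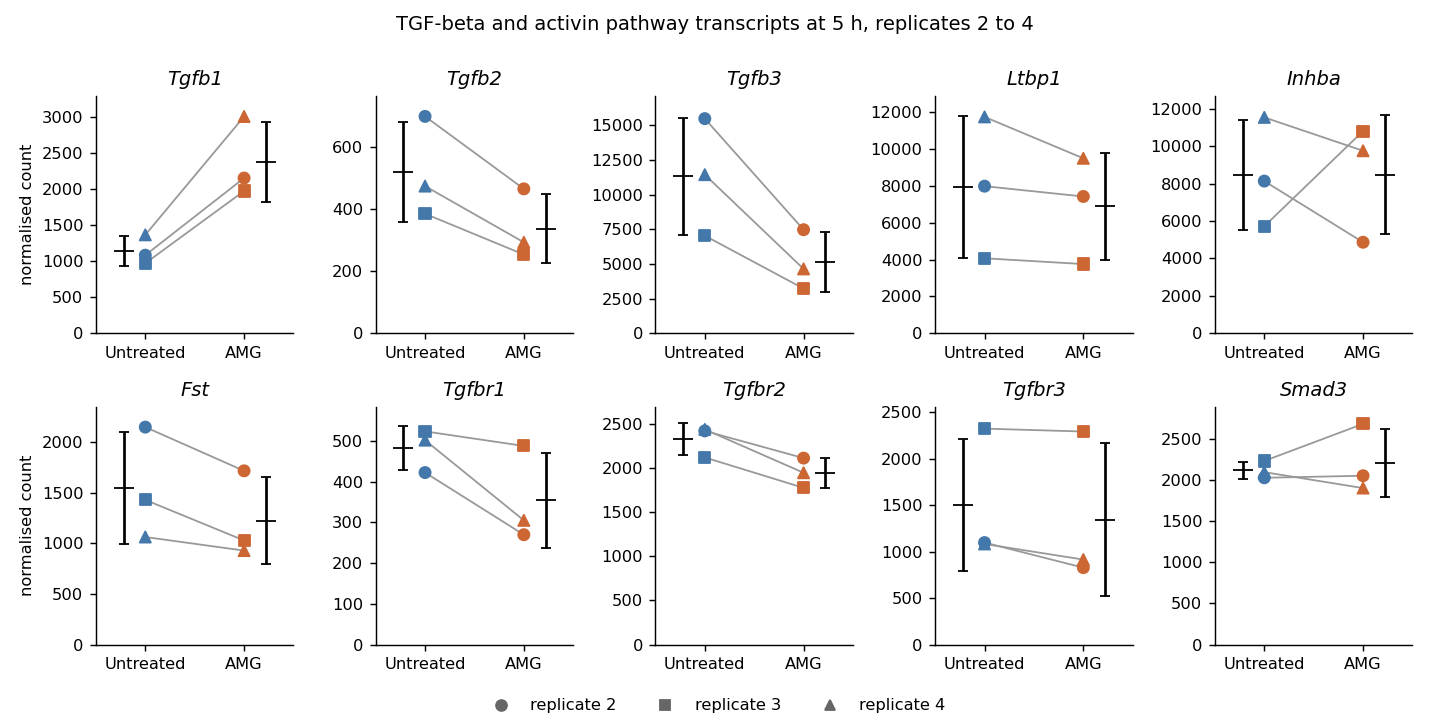
Normalised counts (y axis, linear, from 0) of the 10 genes in untreated (blue) and AMG-treated (orange) libraries of replicates 2 to 4 at 5 h, with lines joining libraries of the same replicate number and bars giving the mean and SD (n = 3). Tgfb1 lines all go up, those of Tgfb2, Tgfb3, Fst, Ltbp1 and the 3 receptors all go down, and those of Inhba cross.

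Among the ligands, Tgfb1 (ENSMUSG00000002603.15; chr7:25687002-25705077, + strand, mm10) encodes the form most studied in fibrosis and wound repair. Its normalised counts were 1082, 971 and 1364 in untreated replicates 2, 3 and 4, and 2151, 1972 and 3004 in the treated replicates. The lowest treated library lay above the highest untreated one. The mean went from 1139 ± 203 to 2376 ± 551 (SD, n = 3), a fitted difference of 1.05 on the log2 scale (SE 0.20, limma adjusted p 0.0658). The blocked fit gave an adjusted p of 7.76e-05, and the 3 pairs had log2 ratios of 0.99, 1.02 and 1.14. Over 22 alternative settings the log2 fold change lay between 0.87 and 1.19 and the adjusted p between 1.14e-08 and 0.25, and 9 settings passed. Without AMG-treated 5h replicate 3 the adjusted p of limma without the block was 0.02, in a fit that passed 16.8% of all genes.

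Tgfb3 (chr12:86056745-86079041, - strand) was the most abundant of the 3 TGF-beta transcripts in every untreated library. It was counted at 15469, 7033 and 11431 in untreated replicates 2, 3 and 4, and at 7465, 3223 and 4639 with AMG. The groups overlapped, because replicate 2 was high and replicate 3 low in both, but every treated library was below the untreated library of its number. The means were 11311 ± 4219 and 5109 ± 2160 (SD, n = 3), or -1.16 on the log2 scale (SE 0.38, adjusted p 0.15 with limma and 4.46e-05 with the block). The log2 ratios of the pairs were -1.05, -1.13 and -1.30, and the alternatives ranged from -1.48 to -0.87 with adjusted p from 1.86e-09 to 0.369. Ttll5 overlaps it on the opposite strand. Ttll5 had a mean of 232 in the same table against 8210 for Tgfb3, and the strand setting of the counting was not stated.

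Tgfb2 (chr1:186622792-186705989, - strand), whose product depends most on the co-receptor betaglycan for binding, was the scarcest ligand transcript. Untreated replicates 2, 3 and 4 had 697, 384 and 473, and the treated ones 464, 253 and 293. Again the groups overlapped and each pair went down. Tgfb2 was at a log2 fold change of -0.63 (SE 0.30; limma adjusted p 0.265, blocked 0.00441). Pair ratios on the log2 scale were -0.59, -0.60 and -0.69, and the alternatives ranged from -0.88 to -0.39 with adjusted p from 0.000268 to 0.53.

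Per kilobase of exon, Tgfb1 made up 4.37%, 8.23% and 7.25% of the 3 TGF-beta ligand transcripts in untreated replicates 2, 3 and 4, and 15.7%, 28.2% and 29.5% in the treated ones. The treated shares were all above the untreated ones. The mean share of Tgfb1 went from 6.62% ± 2.01 to 24.5% ± 7.61, that of Tgfb3 from 90.9% ± 2.14 to 72.6% ± 7.52, and that of Tgfb2 from 2.49% ± 0.33 to 2.87% ± 0.33 (SD, n = 3). The summed level of the 3 genes went from 3659 ± 1286 to 2040 ± 663 normalised counts per kilobase. This measure was chosen after the values were known and was not tested. Exon length counted every annotated exon of a gene (5042 bases for Tgfb1, 5791 for Tgfb2 and 3383 for Tgfb3). The transcripts expressed can be shorter, so the size of the shares depends on these lengths. In replicate 1 the Tgfb1 share was 12.97%, 24.1%, 7.96% and 6.16% at 1, 5, 12 and 24 h without AMG, and 25.1%, 48.8%, 55.6% and 53.6% with it. The share was therefore higher with AMG in all 7 pairs of libraries. The sum was lower in 6 of 7, the exception being replicate 1 at 5 h. The pairs at the different times of replicate 1 come from 1 replicate and are not separate replicates.

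**Figure D2:**
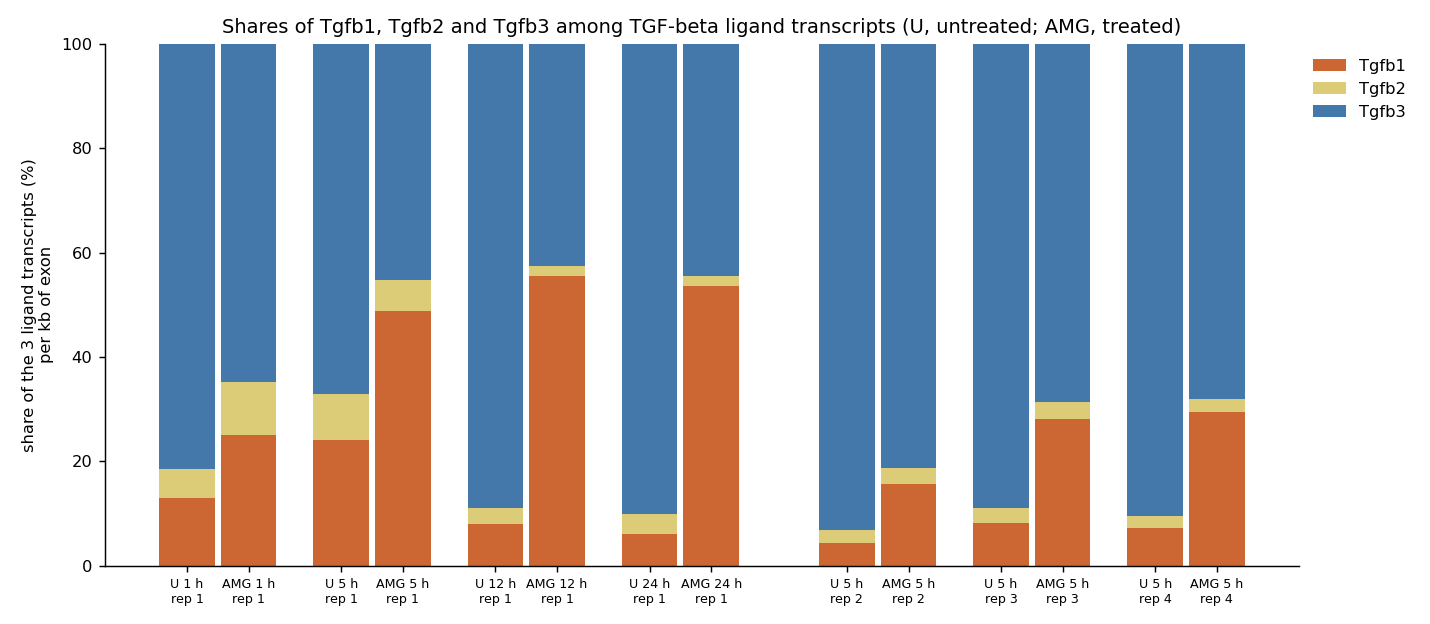
Share (y axis, percent) of Tgfb1, Tgfb2 and Tgfb3 in their summed normalised counts per kilobase of exon, 1 bar per library, untreated (U) beside treated (AMG) of the same time and replicate. The Tgfb1 part is larger in the treated bar of all 7 pairs and reaches 55.6% at 12 h, while Tgfb3 holds most of every untreated bar.

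Inhba (chr13:16011851-16031621, + strand), which encodes the activin beta A subunit, gave no common direction at 5 h. Untreated replicates 2, 3 and 4 had 8136, 5721 and 11541, and treated ones had 4867, 10808 and 9756. The pair of replicate 3 went up and the other two went down, with log2 ratios of -0.74, 0.92 and -0.24. The log2 fold change was -0.02 with a 95% interval of -0.90 to 0.85 (adjusted p 0.979 with limma, 0.952 with the block) and covers changes in both directions. Its sign turned in several alternatives, and edgeR on all 4 replicates with the block gave 0.63.

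Fst (chr13:114452290-114458951, - strand), the activin antagonist, was counted at 2152, 1431 and 1064 without AMG and at 1719, 1029.7 and 929.6 with AMG. All 3 pairs went down, and the groups overlapped. Fst was at a log2 fold change of -0.33 (SE 0.32; limma adjusted p 0.563, blocked 0.0265), and the alternatives ranged from -0.60 to -0.06 with adjusted p from 0.0227 to 0.928. The ratio of Inhba to Fst per kilobase was 2.72, 2.87 and 7.79 in untreated and 2.03, 7.54 and 7.54 in treated replicates. The groups overlapped.

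Ltbp1 (chr17:75005568-75392512, + strand), the latent complex binding protein, had 7980.4, 4069 and 11738 in untreated replicates 2, 3 and 4, and 7421, 3756 and 9493 in treated ones. The replicates differed far more than the treatments. The log2 fold change was -0.18 with a 95% interval of -1.28 to 0.93 (adjusted p 0.85 in limma, 0.148 with the block). It was 0.05 after correction for transcript length.

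The receptors were all lower in each pair, by less than 2-fold. Tgfbr1 (chr4:47353222-47414931, + strand), the type I receptor kinase, had 422, 524 and 502 in untreated and 269.7, 488 and 305 in treated replicates 2, 3 and 4. Replicates 2 and 4 were clearly lower and replicate 3 nearly level, with log2 ratios of -0.65, -0.72 and -0.10. Tgfbr1 was at a log2 fold change of -0.49 (SE 0.24). Its adjusted p was 0.277 with limma, 0.0292 with the block, 0.0527 with both block and length correction, and 0.033 without AMG-treated 5h replicate 3, within a range of 0.000333 to 0.589 over the alternatives.

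Tgfbr2 (chr9:116084293-116175360, - strand), the ligand-binding type II receptor, had 2424, 2123 and 2442 in untreated and 2116, 1778 and 1949 in treated replicates. The groups did not overlap, and the highest treated library lay just under the lowest untreated one. On the log2 scale the change was -0.26 (SE 0.12; limma adjusted p 0.259, blocked 0.0435), and it was -0.10 with block and length correction (adjusted p 0.349). Over all alternatives the adjusted p ran from 0.0149 to 0.798. Tgfbr3 (chr5:107106570-107289629, - strand), the co-receptor betaglycan, had 1097, 2323 and 1082 in untreated and 827, 2291 and 914 in treated replicates. Replicate 3 stood at about the same level in both groups, above the others. The log2 fold change was -0.22 with a 95% interval of -1.32 to 0.87 (adjusted p 0.804 in limma, 0.121 with the block).

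Smad3 (chr9:63646767-63757994, - strand), the transducer shared by TGF-beta and activin, had 2027, 2232 and 2096 in untreated and 2052, 2682 and 1902 in treated replicates. The treated values spanned the untreated ones. The log2 fold change was 0.05 with a 95% interval of -0.32 to 0.41 (adjusted p 0.88 in limma, 0.742 with the block). This interval covers replicates 2 to 4 alone and leaves out a 2-fold change in either direction. The 5 h pair of replicate 1 was at 1.55, and edgeR on all 4 replicates with the block gave 0.42. The sign of the fold change turned to -0.10 without AMG-treated 5h replicate 3 and to -0.00067 with upper quartile scaling.

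The number of genes called with the block depended on single replicates. It was 2 without replicate 2 (Tgfb1 and Tgfb3), where 10.8% of all genes passed, 9 without replicate 3 (all but Smad3), where 51.9% passed, and 3 without replicate 4 (Tgfb1, Tgfb2 and Tgfb3), where 20.4% passed. It was 4 with block and length correction together, where 33.4% of all genes passed. Tgfb1 and Tgfb3 passed in each of these fits. In edgeR on all 4 replicates with the block, only Tgfb1 of the 10 genes passed, and 3.78% of all genes did.

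Compared per kilobase of exon, the untreated libraries of replicates 2 to 4 ranked Tgfb3 highest at 3344 ± 1247 normalised counts per kilobase (SD, n = 3), above Inhba at 1325 ± 458, with no overlap between these. Ltbp1 (742 ± 359), Smad3 (382 ± 18.8), Fst (338 ± 121), Tgfbr2 (285 ± 21.9), Tgfbr3 (229 ± 109) and Tgfb1 (226 ± 40.2) followed, and each overlapped its neighbours. Tgfb2 (89.5 ± 27.9) and Tgfbr1 (73.9 ± 8.15) were lowest, without overlap with Tgfb1 and overlapping each other. With AMG, Tgfb1 was at 471 ± 109 and moved from rank 8 to rank 4, and Tgfb3 at 1510.1 ± 638 now overlapped Inhba at 1327 ± 496. Ltbp1 (644 ± 272), Smad3 (399 ± 74.7), Fst (267 ± 93.6), Tgfbr2 (238 ± 20.6) and Tgfbr3 (205 ± 126) kept their order, and Tgfb2 (58.2 ± 19.4) and Tgfbr1 (54.2 ± 17.9) remained lowest without overlap with the rest. These ranks rest on the length of all annotated exons of each gene, and the transcripts expressed can be shorter.

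**Figure D3:**
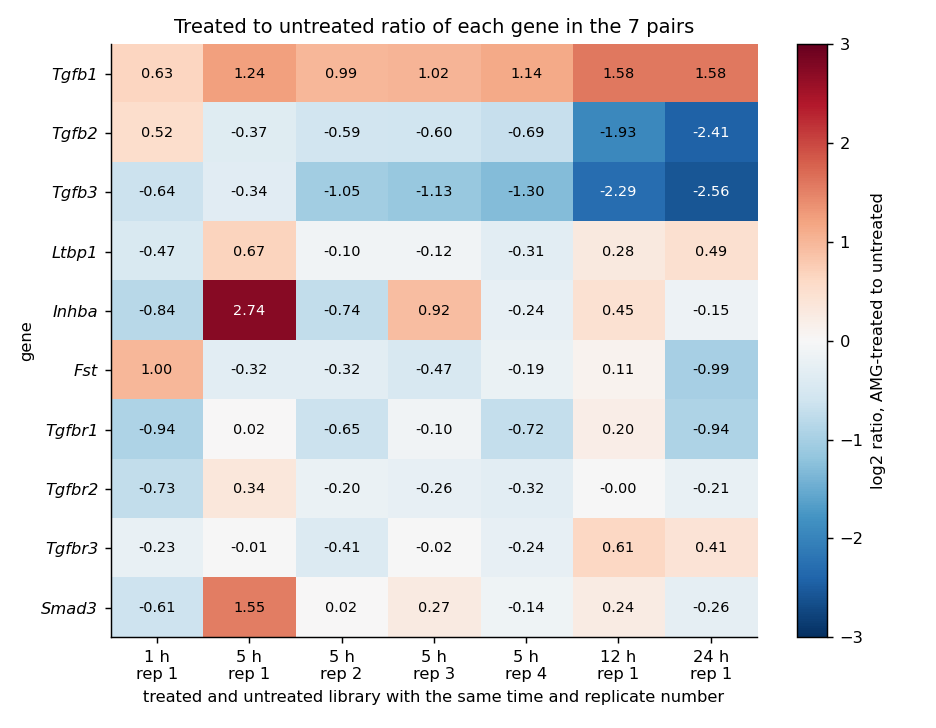
Log2 ratio of treated to untreated normalised count (colour scale and printed values) for each gene (rows) in the 7 pairs of libraries with the same time and replicate number (columns). The Tgfb1 row is above 0 throughout (0.63 to 1.58), the Tgfb3 row below 0 throughout (-2.56 to -0.34), and the Inhba row holds both the highest value (2.74) and values below 0.

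The second question was how these transcripts ran over time after wounding. Replicate 1 had 1 library per group and time, so its ratios have no replicate check and are given as log2 ratios with 95% exact intervals that cover counting error only. Tgfb1 stood at 2500.5, 2375, 905 and 673 without AMG at 1, 5, 12 and 24 h, and at 3879, 5619, 2699 and 2014 with AMG. It declined late in both groups and was higher with AMG at each time. In the order of the times the ratios were 0.63 (0.55 to 0.71), 1.24 (1.16 to 1.32), 1.58 (1.48 to 1.67) and 1.58 (1.47 to 1.70). Corrected for length it was 0.71 at 1 h and 1.17 at 5 h.

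Tgfb2 stood at 1249.8, 1008, 395 and 460.2 without AMG and at 1791, 779, 103 and 85.5 with AMG. The treated course started above the untreated one and ended far below it. Its ratios were 0.52 (0.40 to 0.64), -0.37 (-0.52 to -0.22), -1.93 (-2.25 to -1.64) and -2.41 (-2.76 to -2.11) at the 4 times. The last rests on 601 untreated and 95 treated reads. Corrected for length the ratio was 0.66 at 1 h and -0.52 at 5 h.

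Tgfb3 stood at 10524, 4442, 6791 and 6613 without AMG and at 6731, 3498, 1385 and 1122 with AMG. Untreated cells returned to a higher level after 5 h, and treated cells went on down. From first to last time the ratios were -0.64 (-0.70 to -0.59), -0.34 (-0.41 to -0.28), -2.29 (-2.37 to -2.21) and -2.56 (-2.65 to -2.47). Corrected for length it was -0.83 at 1 h and -0.16 at 5 h, so the 5 h ratio of this pair was small beside those of replicates 2 to 4.

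Inhba stood at 18647, 1749, 4583 and 3568 without AMG and at 10421, 11656, 6274 and 3208 with AMG. The untreated course fell by 3.41 on the log2 scale between 1 h and 5 h and partly returned at 12 h, while the treated course was level from 1 h to 5 h (0.16). The ratios were -0.84 (-0.88 to -0.80), 2.74 (2.65 to 2.83), 0.45 (0.40 to 0.50) and -0.15 (-0.22 to -0.09) in turn. Corrected for length the 1 h ratio was -0.67. The 5 h ratio was 2.53 after length correction and rests on Untreated 5h replicate 1, the library with the highest share of ribosomal protein reads. No pair of replicates 2 to 4 exceeded 0.92.

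Smad3 also had its lowest value in the untreated library at 5 h. It stood at 4123, 1059, 2365 and 3119.8 without AMG and at 2699, 3092, 2796 and 2608 with AMG. The treated course stayed nearly level, with a difference of -0.05 between 24 h and 1 h, and the ratios were -0.61, 1.55 (1.43 to 1.67), 0.24 and -0.26. After length correction the 1 h ratio was -0.49 and the 5 h ratio 1.43, against 0.02, 0.27 and -0.14 in replicates 2 to 4.

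Fst stood at 4569, 5706, 1899.8 and 2608 without AMG and at 9111, 4586, 2057 and 1311 with AMG. It was higher with AMG at 1 h, with a ratio of 1.00 (0.94 to 1.05), and lower at 5 h (-0.32) and at 24 h, with a ratio of -0.99 (-1.08 to -0.90). Corrected for length it was 1.02 at 1 h, which is past 2-fold, and -0.34 at 5 h. From 1 h to 24 h it fell by 2.80 on the log2 scale with AMG and by 0.81 without. After length correction the difference with AMG was -2.81.

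Ltbp1 stood at 5147, 3072, 3466 and 3479.8 without AMG and at 3726, 4893, 4223 and 4880.2 with AMG. It was lower with AMG at 1 h (-0.47, or -0.17 corrected for length) and higher at 5 h (0.67, or 0.22 corrected), 12 h (0.28) and 24 h (0.49, 0.43 to 0.55). None of these reached 2-fold.

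Tgfbr1 stood at 1043, 428, 385 and 577 without AMG and at 544, 433, 443 and 301 with AMG. It was lower with AMG at 1 h and 24 h, with ratios of -0.94 (-1.12 to -0.76) and -0.94 (-1.13 to -0.75), and near level at 5 h (0.02) and 12 h (0.20). Corrected for length its ratio was -0.77 at 1 h and -0.20 at 5 h, where the sign turned. Tgfbr2 stood at 4478, 2280.0, 4400.3 and 6266 without AMG and at 2700.4, 2885, 4397 and 5402 with AMG. Its ratio was -0.73 (-0.50 corrected for length) at 1 h, 0.34 (0.01 corrected) at 5 h, 0.00 at 12 h and -0.21 at 24 h. Tgfbr3 stood at 1679.6, 1029.4, 2310.3 and 3799.8 without AMG and at 1429, 1020.4, 3533 and 5067 with AMG. It climbed after 5 h in both groups, by 1.18 without and 1.82 with AMG from 1 h to 24 h on the log2 scale, and its ratio was 0.61 (0.54 to 0.68) at 12 h and 0.41 (0.36 to 0.47) at 24 h. At 1 h it was -0.23 (-0.06 corrected for length) and at 5 h -0.01 (-0.23 corrected).

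**Figure D4:**
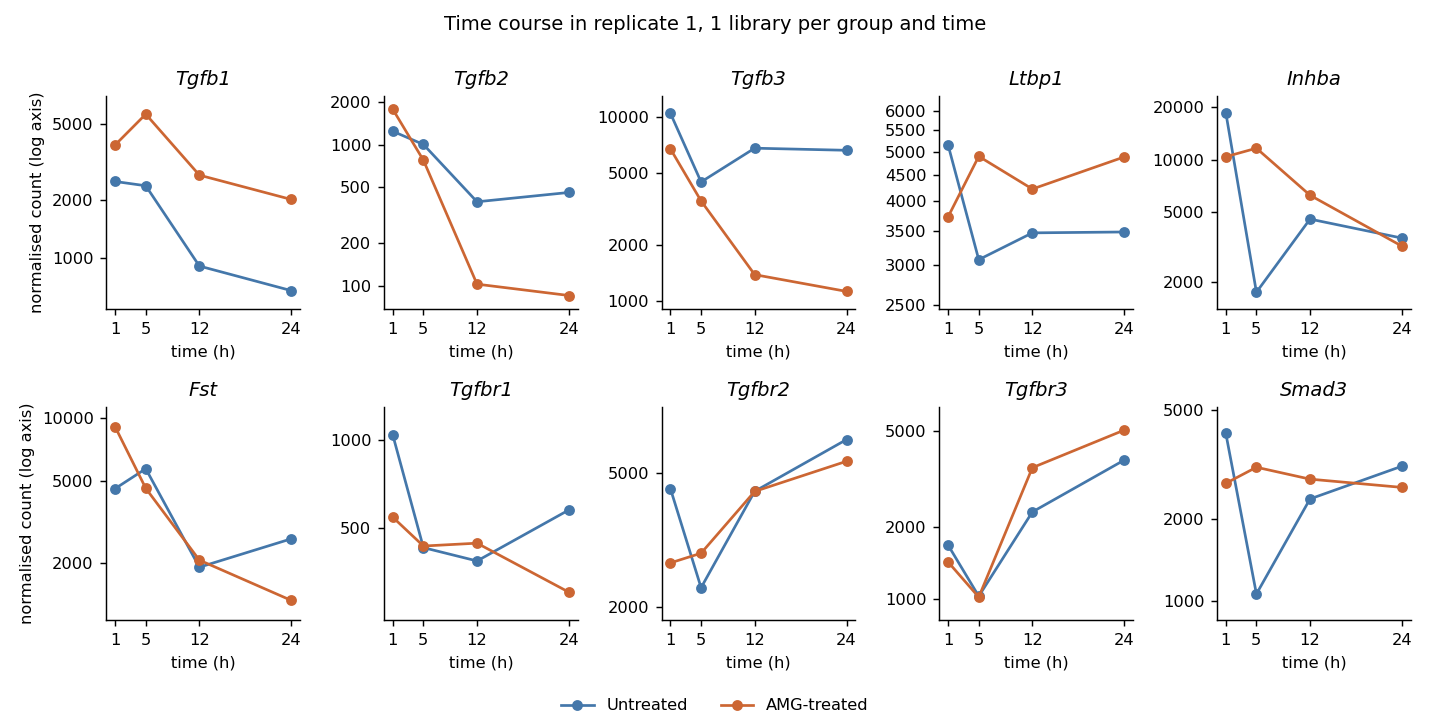
Normalised counts (y axis, log scale, each gene with its own range) at 1, 5, 12 and 24 h (x axis) in replicate 1, untreated in blue and AMG-treated in orange, 1 library per point. Tgfb2 and Tgfb3 lines part after 5 h, the Tgfb1 lines are apart at all times, and the untreated Inhba and Smad3 lines dip at 5 h.

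Counted against a 2-fold change between treated and untreated cells, 0 of 10 genes passed at 1 h (22% of 13498 genes did). At 5 h 3 were higher (Tgfb1, Inhba and Smad3), where 25.9% of genes passed and 13.3% were higher. At 12 h Tgfb1 was higher and Tgfb2 and Tgfb3 were lower, against 12.8% of all genes (5.93% higher, 6.9% lower). The call was the same for these 3 at 24 h, against 14.1% (6.05% higher, 8.05% lower). Within the untreated course and relative to 1 h, 4 genes were lower at 5 h (Tgfb3, Inhba, Tgfbr1 and Smad3, against 32.3% of genes past 2-fold and 16.8% lower), and 3 after length correction, where Tgfbr1 was at -0.99. At 12 h 5 were lower (Tgfb1, Tgfb2, Inhba, Fst and Tgfbr1, against 12.4% past 2-fold and 7.01% lower). At 24 h 3 were lower (Tgfb1, Tgfb2 and Inhba) and Tgfbr3 was higher, against 14.6% past 2-fold (7.02% higher, 7.62% lower). Within the treated course Tgfb2 alone was lower at 5 h, with a difference of -1.20 on the log2 scale, against 21.8% of genes past 2-fold and 10.3% lower, and Fst joined it after length correction. Every treated difference is taken against AMG-treated 1h replicate 1, where 5.10% of reads came from ribosomal protein genes. At 12 h Tgfb2, Tgfb3 and Fst were lower and Tgfbr3 higher, against 34.5% (16.8% higher, 17.6% lower). At 24 h Inhba had joined the lower genes, with a difference from 1 h of -1.70, and Tgfbr2, at 1.00, the higher ones, against 32.8% (16.2% higher, 16.7% lower). Tgfbr2 passed only narrowly and was at 0.84 after length correction, where Tgfb1 was past 2-fold lower instead, at -1.002. Over all 7 pairs Tgfb1 was higher in 7, Tgfb3 lower in 7, and Tgfb2 and Tgfbr2 lower in 6. Fst, Tgfbr1 and Tgfbr3 were lower in 5, and Inhba and Smad3 were split at 3 and 4 higher. These pairs include every time of replicate 1, which is 1 replicate, and no share of all genes is given beside the counts. Leukocyte markers in replicate 1 summed to 1156 to 1936 in untreated and 389.7 to 1247 in treated libraries. Of this, Lyz2 alone was at 871 to 1541 in untreated and 266 to 962 in treated libraries. The part of these markers in the ratios was not tested.

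The rest of the pathway was described by 4 lists holding 68 genes, of which 61 were tested at 5 h. Limma passed 0 higher and 2 lower, where 1.24% of all genes passed. With the block 5 were higher and 21 lower, where 17.9% and 19.3% of all genes were. In edgeR on all 4 replicates with the block 0 were higher and 3 lower, where 3.78% of all genes passed. Of 23 other ligands and extracellular regulators 19 were tested; 0 passed and 6 were lower with the block, with a median log2 fold change of -0.16. Thbs1, which encodes an activator of latent TGF-beta, had -1.27 (adjusted p 0.0898 in limma, 0.0018 with the block), and the activating integrin gene Itgb8 had -1.59 (0.323 and 0.0311). Gdf15, at 0.61, and Nrros, at 0.30, were the highest of this list and passed neither fit. Of 8 tested receptors and co-receptors 0 passed in limma, and with the block 2 were higher and 2 lower. Acvrl1 (0.39, adjusted p 0.785 and 0.0487) and Fkbp1a (0.43, 0.144 and 0.0119), which encodes a protein that holds type I receptors inactive, were the higher ones. Bambi, a pseudoreceptor gene (-1.31, 0.0941 and 0.0019), and the activin receptor gene Acvr2a (-0.57, 0.321 and 0.0143) were the lower ones. Itgb8 was low and uneven, at 57.0 ± 24.7 without and 29.6 ± 36.3 with AMG (SD, n = 3). In the 5 h pair of replicate 1 the log2 ratios were -0.02 for Thbs1, 0.71 for Itgb8, -2.64 for Gdf15 and -0.14 for Nrros. They were 0.71 for Acvrl1, -0.30 for Fkbp1a, -1.73 for Bambi and -0.59 for Acvr2a. That pair rests on Untreated 5h replicate 1, the library with the highest share of ribosomal protein reads.

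Among 14 tested Smads, repressors and ubiquitin ligases, Smad6, an inhibitory Smad gene, fell from 496 ± 142 to 123 ± 26.0 (SD, n = 3), which is -1.996 on the log2 scale (SE 0.27, adjusted p 0.0266 with limma). With the block 3 were higher and 4 lower, where 17.9% and 19.3% of all genes were. The corepressor gene Tgif1 was at 1.05 (adjusted p 0.0955 in limma, 0.000665 with the block), Smad2 at 0.33 (0.192 and 0.0223) and the corepressor gene Ski at -0.81 (0.0721 and 0.000873). Of 20 genes known as TGF-beta targets 0 were higher and 1 was lower in limma. This was Snai2, which encodes a transcription factor of mesenchymal cells, at 832 ± 133 without and 316 ± 39.0 with AMG (log2 fold change -1.39, SE 0.17, adjusted p 0.0209). With the block 0 were higher and 9 lower, Cilp among them at -1.08 (adjusted p 0.396 in limma, 0.00101 with the block). The median was -0.26, and 17 of 20 were below 0, where 48.4% of all genes were above 0. Pmepa1 (0.24) and Tagln (0.18) were the highest targets and passed neither fit. The fold changes of both moved little with 1 library left out, from -2.12 to -1.77 for Smad6 and from -1.49 to -1.26 for Snai2, but the limma calls did not always hold. Of the 61 genes, 0 passed without any 1 of Untreated 5h replicates 2, 3 or 4 or AMG-treated 5h replicates 2 or 4, and 8 passed without AMG-treated 5h replicate 3, where 16.8% of all genes passed. In these fits the adjusted p of limma ran from 0.013 to 0.125 for Smad6 and from 0.00873 to 0.125 for Snai2. In the 5 h pair of replicate 1 the log2 ratios were -2.58 for Smad6, 0.48 for Tgif1, 0.11 for Smad2 and 0.23 for Ski. Those of the targets were -1.68 for Snai2, 0.17 for Cilp, -0.19 for Pmepa1 and -0.66 for Tagln.

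In replicate 1 the 20 target genes had median log2 ratios of -0.37, 0.13, -0.79 and -1.33 at 1, 5, 12 and 24 h, where the medians of all genes were -0.06, -0.01, -0.01 and 0.02. At 12 h and at 24 h 19 of 20 were below 0, where 48.9% and 51.6% of all genes were above 0. At 24 h 12 of 20 were lower by more than 2-fold, against 8.05% of all genes, and 0 were higher. Corrected for length the medians were -0.42 at 1 h, -0.07 at 5 h, where the sign turned, -0.77 at 12 h and -1.39 at 24 h, with 12 lower at 24 h. The list was chosen with earlier results of these data known, so this count describes it and was not tested. The fibroblast markers summed to 410397 to 527577 in untreated and 270254 to 448135 in treated libraries of replicate 1. Col1a1, Col1a2 and Col3a1 are on both lists, so this sum is no separate gauge of fibroblast content.

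**Figure D5:**
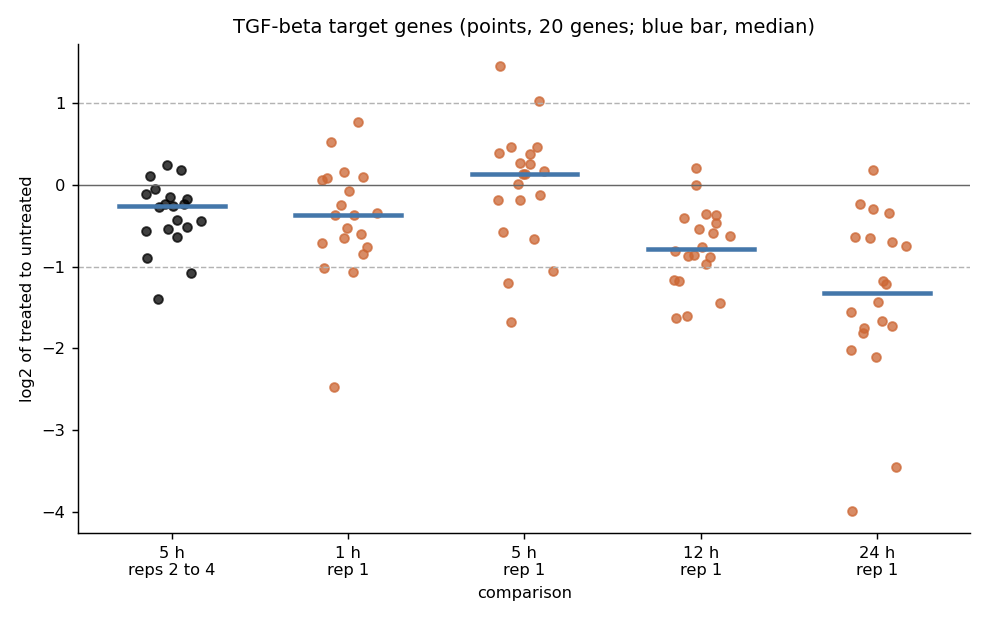
Log2 ratio of treated to untreated (y axis) of the 20 TGF-beta target genes, 1 point per gene, for the fold change at 5 h in replicates 2 to 4 (black) and the 4 times of replicate 1 (orange), with blue bars at the medians and dashed lines at 2-fold. The median is -0.26 in replicates 2 to 4 and goes from -0.37 at 1 h to -1.33 at 24 h in replicate 1.

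Finally, the gene with the most similar profile was found for each gene among the 10886 genes whose mean reached 50 in each table, as the smallest root mean square distance of centred log2 values over 14 libraries, centred within each table. Tgfb1 was nearest to Ptgs2os (0.28), Tgfb2 to Fabp5 (0.36), Tgfb3 to the integrin gene Itga1 (0.32), Inhba to Phlpp1 (0.36) and Fst to Pqlc1 (0.33). Ltbp1 was nearest to Pam (0.21), Tgfbr1 to Pde4d (0.20), Tgfbr2 to Bcas3 (0.13), Tgfbr3 to Sfxn5 (0.25) and Smad3 to the transcription factor gene Sp1 (0.14). The spread of the genes' own values on this scale was 0.38 for Tgfbr2 to 1.18 for Tgfb2.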

How the data were processed

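RNA of 14 libraries was measured by stranded poly(A) sequencing with single-end reads of 50 bp. The authors removed adapters, aligned the reads to mm10 with TopHat2 2.0.13 allowing 2 mismatches, kept unique alignments with a score of at least 10 and counted reads per gene with HTSeq 0.5.3p3. The annotation release and strand setting are not given in the sources used here, which leaves genes that overlap on either strand uncertain. What the authors deposited is a signal per gene, namely read counts divided by DESeq size factors, set separately in a table of replicate 1 and a table of replicates 2 to 4. Levels were therefore not compared across the tables. Whole reads were recovered for 100% of values (tolerance 0.1), which allowed edgeR 4.0.16 and DESeq2 1.42.0 as alternatives. The tables hold 0 rows without a gene name. Differences at 5 h were tested with limma 3.58.1 in R 4.3.3 on log2(normalised count + 1), which understates changes of low genes, over 13096 genes with a mean of at least 10, with Benjamini-Hochberg adjustment over all of them and a threshold of 0.05. Library depth ranged from 12545537 to 34696529 reads, and 3 reads are worth 1.62 to 5.22 normalised counts. Reads carry no molecular identifiers, so intervals cover counting error only.

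Replicate numbers were checked as pairs. Deviations from the group means correlated across genes at 0.65, 0.76 and 0.70 for equal numbers and at -0.59 to 0.12 for unequal ones, so the numbers paired the libraries, and a fit with the number as a block is given beside the main one. Replicate 1 ratios were counted as past 2-fold beyond 1 on the log2 scale, over 13498 genes. Gene positions and exon lengths are from GENCODE M21 (mm10). The length correction removed a lowess trend of fold change on exon length and used the 98.7% of tested genes with a length. Lengths, taken over all annotated exons of a gene, also gave the levels per kilobase. Scripts were tested on simulated data. Pathway genes were named where they passed limma or were among the 2 largest rises and 2 largest falls of their list. The members and lists were chosen with earlier results of these data known. Alternatives were other pseudocounts (0.1 and 10), filters, scalings, tools, the block and leaving out libraries. Leaving out a pair in the blocked fit was added after the data had been seen.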

Additional observations from a re-analysis of the deposited data

Results flagged for a closer look

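In replicate 1 some ratios at other times had the opposite sign to all 4 pairs at 5 h, where each time holds 1 pair and the difference was not tested. Tgfb2 was higher with AMG at 1 h, with a log2 ratio of 0.52, and lower in the 4 pairs at 5 h. Fst was higher at 1 h (1.00) and at 12 h (0.11), and lower in the 4 pairs at 5 h. Tgfbr3 was higher at 12 h (0.61) and at 24 h (0.41), and lower in the 4 pairs at 5 h, where the ratio of replicate 1 was only -0.01. Length correction left these signs as they were. Among the 10 groups of 4 pair ratios at 5 h, 0 had a pair that stood apart by Dixon's criterion. With 4 values in a group this criterion seldom marks any, so it cannot show that replicate 1 matched the other pairs.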

How the results depend on the processing

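With limma 0 of the 10 genes passed at 5 h. The count was 6 with the replicate block, 5 in edgeR with the block, 4 with length correction and block, 2 in DESeq2, 1 in edgeR on 4 replicates with the block, 0 to 2 with 1 library left out, and 2, 9 and 3 in the blocked fit without replicate 2, 3 and 4. Of the 61 pathway genes 2 passed in limma, 26 with the block, 25 in edgeR with the block, 24 with length correction and block, 8 in DESeq2, 1 without the variance trend, 0 to 8 with 1 library left out, and 9, 37 and 14 in the blocked fit without replicate 2, 3 and 4. In edgeR on 4 replicates with the block 3 of the 61 passed (0 higher, 3 lower). Over all genes limma called 162 and the blocked fit 4872, or 1.24% and 37.2% of those tested. The share was 33.4% with length correction and block, 10.9% in DESeq2 and 3.78% in edgeR on 4 replicates with the block. It was 16.8% in limma without AMG-treated 5h replicate 3, and 10.8%, 51.9% and 20.4% in the blocked fit without replicate 2, 3 and 4. Shares for edgeR with the block on replicates 2 to 4 and for limma without the variance trend were not computed. At 1 h the count past 2-fold in replicate 1 went from 0 to 1 with length correction (Fst, 1.02). Signs turned for 4 genes that limma did not call. Inhba (-0.02) was at 0.012 in edgeR, 0.0057 in DESeq2, 0.63 in edgeR on 4 replicates with the block, 0.067 with length correction with or without the block, -0.28 to 0.34 with 1 library left out, and 0.34, -0.49 and 0.088 in the blocked fit without replicate 2, 3 and 4. Ltbp1 (-0.18) was at 0.044 in edgeR on 4 replicates with the block, 0.048 with length correction with or without the block, and -0.59 to 0.21 with libraries left out. Tgfbr3 (-0.22) ran from -0.69 to 0.14 and Smad3 (0.05) from -0.10 to 0.15 with libraries left out, and Smad3 was at -0.00067 with upper quartile scaling and -0.061 in the blocked fit without replicate 3. Of the alternative fold changes at 5 h, 167 kept direction and side of the threshold and 34 passed it only under the alternative. Of 160 alternative ratios of replicate 1, 27 moved beyond their counting interval and 2 turned sign, both for Tgfbr1 at 5 h (0.02), at -0.01 with upper quartile scaling and -0.20 with length correction. Ratios of Fst crossed 2-fold at 1 h with length correction (1.02) and at 24 h with upper quartile scaling (-1.05, from -0.99). The fewer samples of the left-out fits aside, the cause was not tested. Tgfb1, Tgfb2, Tgfb3, Fst, Tgfbr1 and Tgfbr2 kept their direction in all 22 settings. With 3 libraries per group, levels that differ between replicates as much as those of Ltbp1 or Tgfbr3 leave wide intervals, and replicate 1 has no replicate check at any time.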
